A study of Homo sapiens with 38 samples.

Results

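Chemokines are small secreted proteins that draw cells bearing the matching G-protein-coupled receptors towards their source. T cells make several of them after stimulation of the antigen receptor. Signals through calcium, protein kinase C and MAP kinases then act on the transcription factors NFAT, AP-1 and NF-kB, and these are well known to switch on chemokine promoters. The 8 genes described here are CXCL8, CXCL10, XCL1, XCL2, CCL1, CCL3, CCL4 and CCL5. They were named as chemokines of activated T cells and taken by symbol, 8 of 20050 protein-coding gene records, by a rule with no threshold on a measured value. For each gene, every region of the GATA3, BHLHE40 and H3K27ac lists that overlapped its RefSeq record on GRCh38 plus 20 kb on each side, here called its window, was described.

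The study profiled Jurkat cells, an established line from a human T-cell acute lymphoblastic leukaemia, by chromatin immunoprecipitation and sequencing (ChIP-seq). Its 38 samples formed 19 groups of 2, and the 3 groups with a list used here were wild-type Jurkat cells with the genotype label Ctrl_LV, a control lentivirus, 1 group per antibody (GATA3, BHLHE40 and H3K27ac). Cells of these groups were labelled as stimulated with PMA (50 ng/ml), which activates protein kinase C, and ionomycin (500 ng/ml), which raises intracellular calcium. The sample characteristics give 5 hours of stimulation and the treatment protocol gives 2 hours. Cells given the control or targeting guide and BHLHE40 over-expressing cells were not analysed here, and no resting cells were compared, so no value below is a response to stimulation. Jurkat is a leukaemia line that expresses GATA3 and TAL1, which limits it as a model of a normal T cell.

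GATA3 is a zinc-finger factor of the T-cell lineage that binds GATA words. BHLHE40 is a basic helix-loop-helix factor that is induced by activation and binds E-boxes. H3K27ac is the acetylation of histone H3 at lysine 27, a mark of active promoters and enhancers. A single list represents the pair of samples in a group, without values for the individual samples, so no spread between replicates and no test between samples could be had, and the sequencing depth is unknown. The lists held 29009 GATA3, 26205 BHLHE40 and 113570 H3K27ac regions. The signal value of a region is the authors' measure of its enrichment, and its −log10 q is their significance after correction for multiple testing. Both are compared only within a list. The T-cell label was checked on H3K27ac within 1 kb of an end of the gene record. Of 10 T-cell marker genes, 9 had a region with a −log10 q of at least 5 there, among them CD3D, CD3E and LCK. The same held for 1 of 6 B-cell markers (BLK), 0 of 6 myeloid markers and 0 of 5 markers of other cells. With regions of any −log10 q the counts were 9, 2, 0 and 1, and 56.3% of protein-coding genes had one. The share of all genes with a −log10 q of at least 5 there was not computed.

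The upstream sequences of 4 of the genes are shown. That of XCL2 was the single one that lay in a BHLHE40 region, and the other 3 lay in no region of any list. The upstream sequence of CCL3, which is not shown, also lay in no region. Whether words go with regions was not tested. Each line gives the 250 bases before the start of transcription from RefSeq (GRCh38.p14), 5′ to 3′ on the gene's own strand. XCL2 is at chr1:168543998-168544247 on the minus strand, CXCL8 at chr4:73740319-73740568 on the plus strand, CXCL10 at chr4:76023498-76023747 on the minus strand and CCL1 at chr17:34363234-34363483 on the minus strand. Capitals mark exact matches on either strand to 5 kinds of word. They are AGATAA, a word of GATA factors, its variant spelled TGATAA, the general E-box CANNTG, the AP-1 word TGANTCA, and the NF-kB words, of which one reads GGGANTTCC and the other reads GGAANTTCC. The NF-kB words can overlap the shorter GGAAA named below.
XCL2: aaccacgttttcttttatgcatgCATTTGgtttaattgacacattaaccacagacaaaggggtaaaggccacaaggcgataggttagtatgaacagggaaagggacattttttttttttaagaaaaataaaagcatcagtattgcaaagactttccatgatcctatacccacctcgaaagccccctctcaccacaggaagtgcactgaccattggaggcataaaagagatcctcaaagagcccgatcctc
CXCL8: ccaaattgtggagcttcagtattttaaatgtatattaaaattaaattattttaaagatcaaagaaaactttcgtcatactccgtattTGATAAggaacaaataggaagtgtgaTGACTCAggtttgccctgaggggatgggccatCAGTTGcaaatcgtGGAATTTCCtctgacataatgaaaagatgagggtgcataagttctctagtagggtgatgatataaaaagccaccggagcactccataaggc
CXCL10: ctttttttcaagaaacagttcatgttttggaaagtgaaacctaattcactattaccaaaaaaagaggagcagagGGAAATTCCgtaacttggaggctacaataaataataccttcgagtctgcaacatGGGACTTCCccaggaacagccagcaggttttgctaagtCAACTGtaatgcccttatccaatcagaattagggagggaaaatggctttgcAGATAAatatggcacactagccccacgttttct
CCL1: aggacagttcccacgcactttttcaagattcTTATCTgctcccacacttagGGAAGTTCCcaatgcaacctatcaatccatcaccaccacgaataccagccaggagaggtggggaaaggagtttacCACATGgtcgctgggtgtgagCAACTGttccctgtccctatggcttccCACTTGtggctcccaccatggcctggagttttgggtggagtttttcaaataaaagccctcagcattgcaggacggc

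The RefSeq promoter table held 5 of the 8 genes: these 4 and CCL3. XCL1, CCL4 and CCL5 had no entry. The NF-kB word GGAANTTCC, found in 0.826% of the 35116 upstream sequences of the table, had 1 match each in CXCL8, CXCL10 and CCL1. In CXCL8 it lay 91 to 83 bases before the start, and the AP-1 word (6.57% of upstream sequences) lay farther out, at 137 to 131 bases. CXCL10 also held GGGANTTCC, a word of 1.59% of upstream sequences. A GATA word was present in CXCL8 (TGATAA, 6.66% of upstream sequences) and in CXCL10 and CCL1 (AGATAA, 9.17%). Neither NF-kB word nor a GATA word was found in the upstream sequences of XCL2 and, before the outermost start, of CCL3. The palindromic E-box CACGTG, the preferred word of BHLHE40, was found in none of the 5, against 6.34% of all upstream sequences. CCL3 also has 2 inner start sites in the table, and of the sequences before them one held CACGTG and the other AGATAA, both outside the regions of all 3 lists. The looser CANNTG was in 61.8% of all upstream sequences and in 4 of these 5, CCL3 being without it. The short NFAT core GGAAA, left in lower case because it is in 55.6% of upstream sequences, was in each of the 5. A match describes these letters only and is not a measured site.

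Most of the chemokine windows held few factor regions. A GATA3 region lay in 3 of the 8 windows (XCL1, XCL2 and CCL1, 1 region each), while 61.8% of all protein-coding genes had one in a window built the same way. A BHLHE40 region lay in 4 of the 8 (XCL2, CCL1, CCL3 and CCL5), against 71% of protein-coding genes. An H3K27ac region lay in 7 of the 8, all but CCL4, against 86.8%. Short genes have short windows, and the longest of these records, CCL5, has 8870 bp. Among the 5179 protein-coding genes with a record no longer than that, the shares were 44.9% for GATA3, 57.5% for BHLHE40 and 74.1% for H3K27ac. The GATA3 and BHLHE40 counts, 3 and 4 of 8, were near the shares of the short genes, as was the H3K27ac count of 7.

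The windows together held 3 GATA3, 7 BHLHE40 and 27 H3K27ac regions, and no region fell in more than 1 window. They were spread unevenly. The XCL2 window held 11 of the 27 H3K27ac regions and 3 of the 7 BHLHE40 regions, and CCL1 was the only other gene whose window held all 3 lists. CXCL8, CXCL10 and CCL4 had no factor region at all. The shares of all genes with neither factor, or with all 3 lists, were not computed, so these counts are a description only. Among the short genes the median number of GATA3 regions was 0, and 42.5% had no BHLHE40 region. Leaving out XCL2 and CCL4, 1 gene of each pair of neighbours, lowered the counts to 4 BHLHE40 and 16 H3K27ac regions.

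**Figure D1:**
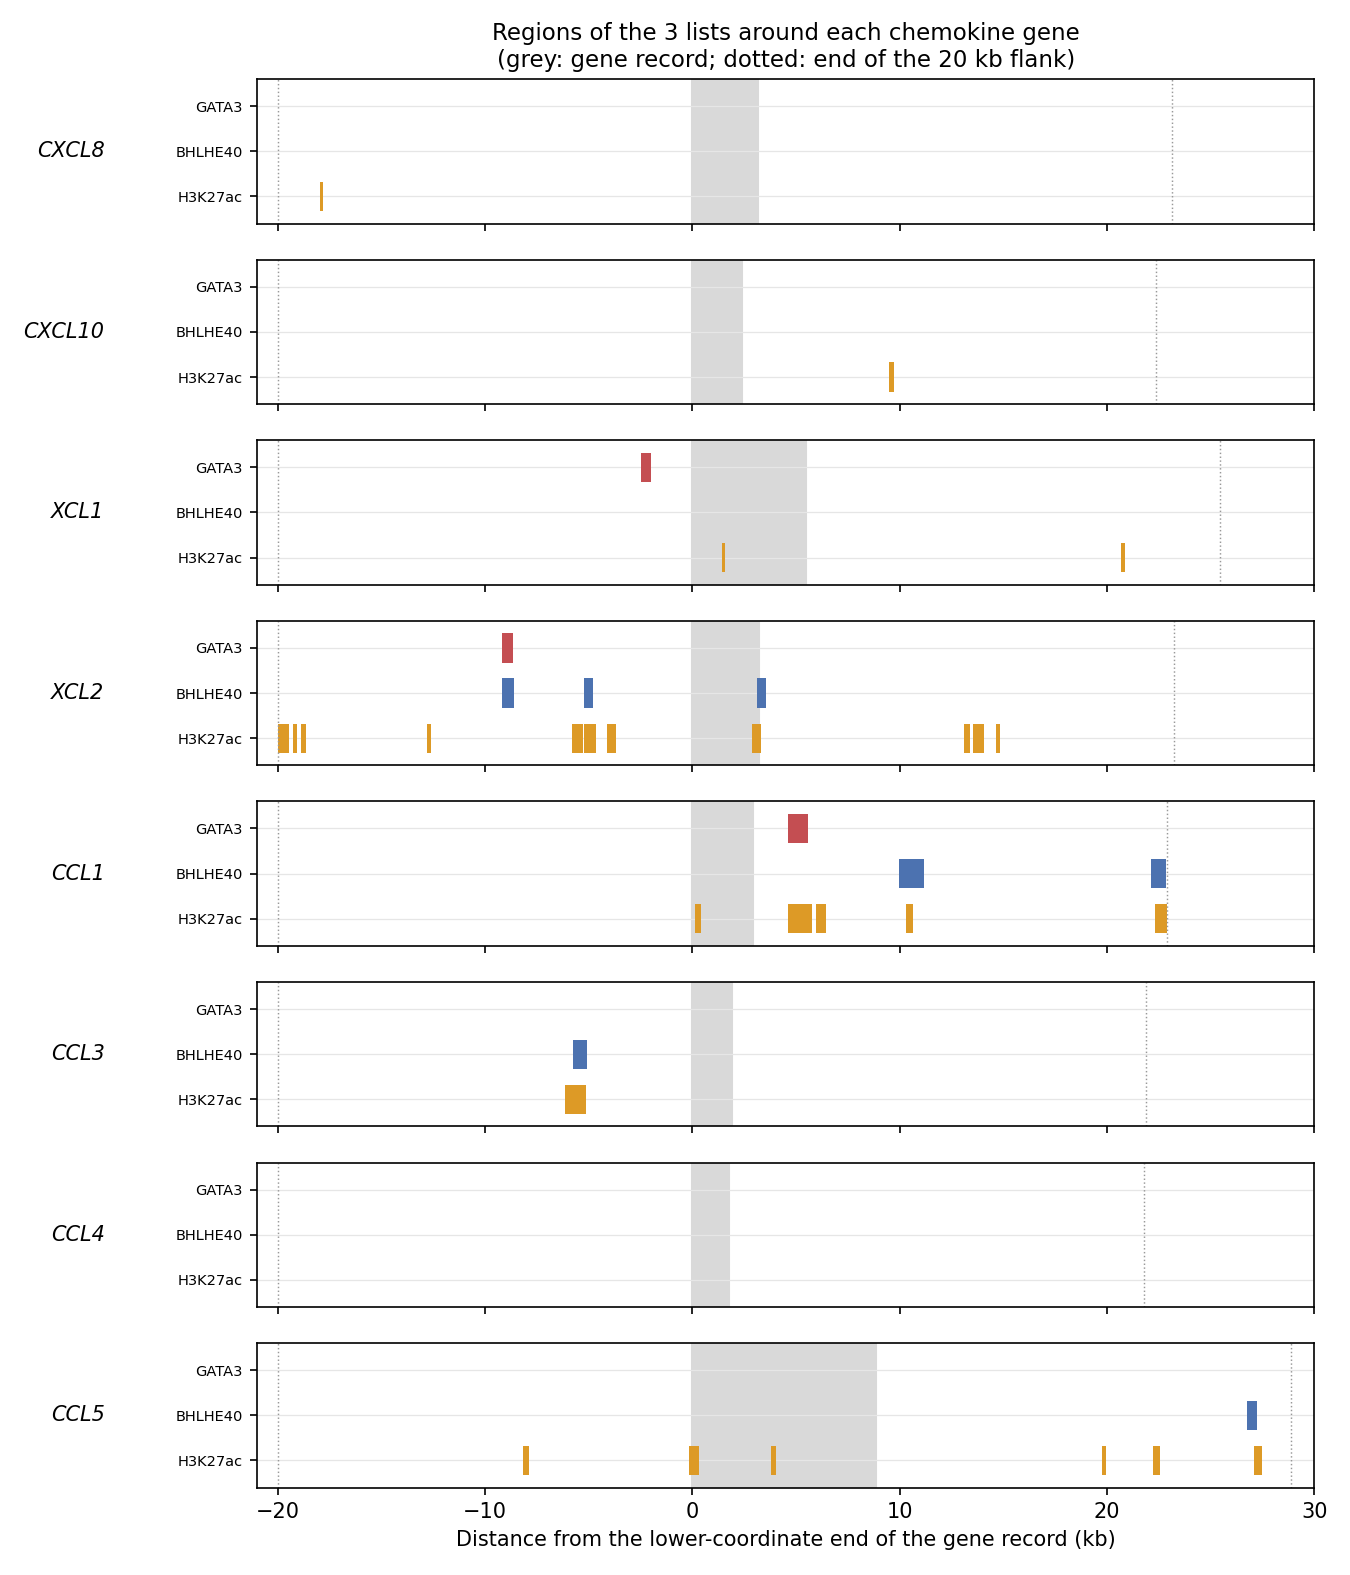
Regions of each list around the 8 genes, with the distance from the lower-coordinate end of the gene record in kb on the horizontal axis and 1 row per list. Regions that cross the dotted end of a window are drawn up to it. The XCL2 and CCL1 windows hold regions of all 3 lists, the CCL4 window holds none, and XCL2 is the one record that a BHLHE40 region overlaps.

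CXCL8 encodes interleukin-8, an attractant of neutrophils that acts on CXCR1 and CXCR2. Its record spans positions 73740569 to 73743716 of chromosome 4. The window held 1 region, a 180 bp H3K27ac region at 73722585 to 73722764. Its summit lay 17906 bp upstream of the start and outside any gene record. The signal value was 3.56 with a −log10 q of 3.20, and 63.3% of the list had a lower signal value. The nearest factor regions lay far away on the other side, at 73832510 to 73833006 for BHLHE40 and 73832625 to 73832996 for GATA3. They were 88794 bp and 88909 bp from the CXCL8 record, and in both lists 77.6% of the short genes had a nearer region. The promoter with AP-1 and NF-kB words shown above was outside all 3 lists.

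CXCL10, an interferon-induced attractant of T cells that binds CXCR3, lies at 76021118 to 76023497 of chromosome 4 within the record of ART3. The records of CXCL9 and CXCL11, which encode ligands of the same receptor, also reach into its window. The single region of the window was an H3K27ac region of 253 bp at 76030588 to 76030840, between CXCL10 and CXCL11. Its signal value of 3.31 was that of the middle of the list and its −log10 q was 2.58. The nearest factor site lay 9680 bp beyond the window, on the CXCL9 side. There a GATA3 region (75990627 to 75991173, signal value 7.20), a BHLHE40 region (75990617 to 75991438, signal value 11.6) and an H3K27ac region (75990536 to 75990974, signal value 7.81) overlapped, with their summits in the record of the antisense RNA SDAD1-AS1 and, for GATA3 and H3K27ac, also in that of the protein-coding gene SDAD1. It was 29680 bp from CXCL10 by the BHLHE40 region.

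XCL1 and XCL2 encode the lymphotactins, which act on XCR1, a receptor of cross-presenting dendritic cells. The genes are near-identical copies on chromosome 1, with 32608 bp between the records. How reads of near-identical sequence were placed is not given in the sources used here, so values over the records themselves are uncertain. How far the near-identical sequence reaches into the flanks was not measured, so values there may be uncertain too. XCL2 spans 168540768 to 168543997 and XCL1 spans 168576605 to 168582069.

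The start of XCL2 lay in a BHLHE40 region and in an H3K27ac region. The BHLHE40 region ran from 168543886 to 168544341, covered all 250 bases of the upstream sequence shown and had its summit 142 bp upstream of the start. It was a weak region: its signal value was 6.28, its −log10 q 19.3 and its score 823, and 19.6% of the BHLHE40 list had a lower signal value. The H3K27ac region, at 168543656 to 168544067, had its summit 76 bp inside the gene, a signal value of 5.22 and a −log10 q of 11. The E-box CATTTG lay 227 to 222 bases before the start. Of the 5 genes with an upstream sequence, XCL2 was the 1 overlapped by BHLHE40 or by H3K27ac there, and none was overlapped by GATA3. Across the whole promoter table, 32.4% of upstream sequences overlapped a BHLHE40 region, 34.2% an H3K27ac region and 13.9% a GATA3 region.

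Downstream of XCL2 lay 2 further BHLHE40 regions. The farther one, at 168531579 to 168532146 with a signal value of 7.90, was the single place in the 8 windows where both factors met. The GATA3 region there, at 168531599 to 168532111, had its summit 15 bp from the BHLHE40 summit, and no H3K27ac region overlapped it. With a signal value of 5.26 it was among the weakest of its list, in which 3.36% of regions were lower. The nearer one, at 168535553 to 168535971 with a signal value of 5.13, overlapped an H3K27ac region at 168535559 to 168536112 whose signal value was 4.55.

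Of the 11 H3K27ac regions of the XCL2 window, 3 lay at its lower edge, 1 at 168527983 to 168528176, 3 around the nearer downstream BHLHE40 region, 1 over the start of the gene and 3 upstream of the start, 9855 to 11433 bp from the record. Signal values ran from 2.14 to 5.22, and 7 of the 11 had a −log10 q of at least 5. Of the 5179 short genes, 98.4% had fewer H3K27ac regions in their window. By length the standing was lower: the regions covered 4093 bp of the window, and 91.9% of short genes had less. These were separate regions with gaps between them, and another (168520170 to 168520506, −log10 q of 8.96) ended 262 bp outside the window. At 168513198 to 168513702, 7066 bp outside the window, lay a second BHLHE40 region that overlapped a GATA3 region (168512803 to 168513683).

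The regions at XCL1 were unlike those at its copy. It had no BHLHE40 region, and the nearest was the one at the start of XCL2, 32264 bp away. Its 2 H3K27ac regions were near the middle of their list, one inside the record at 168578022 to 168578201 (signal value 3.22, −log10 q of 2.62) and one at 168597284 to 168597496 (signal value 3.56, −log10 q of 3.20). Neither reached a −log10 q of 5. Yet the strongest GATA3 region of the 8 windows lay beside XCL1, at 168574105 to 168574591, with its summit 2187 bp from the lower-coordinate end of the record. Its signal value was 17.2, its score 1000 and its rank 8064 of 29009. It overlapped neither a BHLHE40 nor an H3K27ac region. Only 21.1% of the short genes had a GATA3 region nearer to the record.

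**Figure D2:**
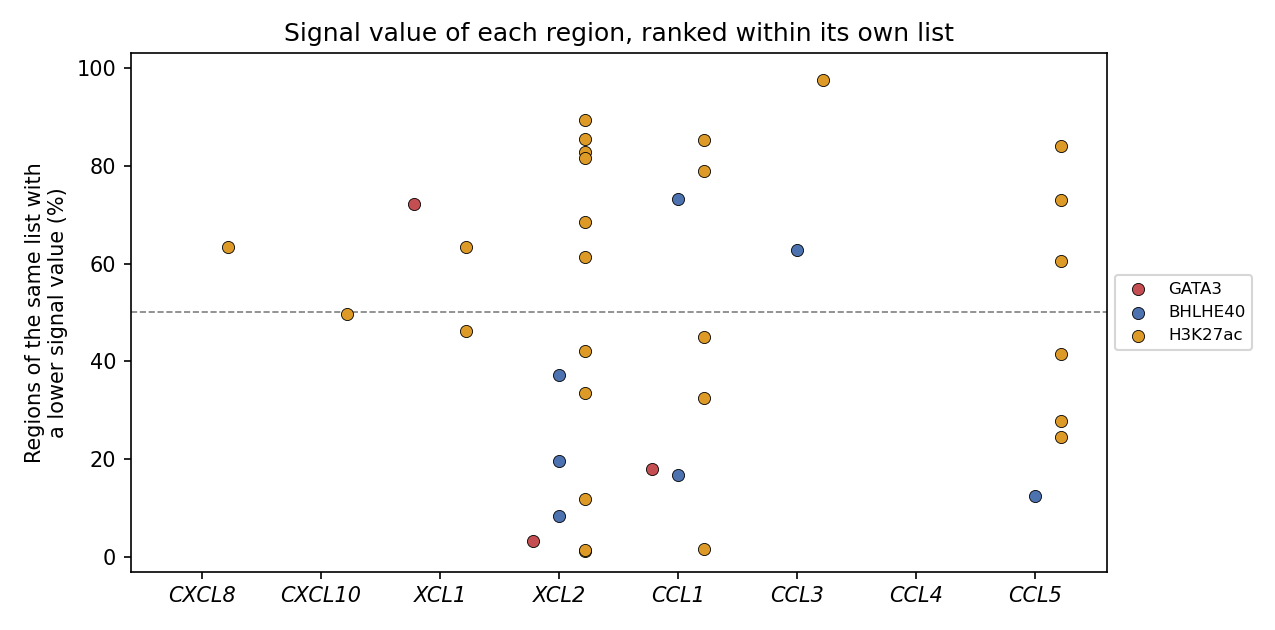
For each region in the 8 windows, the percentage of its own list with a lower signal value. The GATA3 region at XCL1 (72.2%) and the BHLHE40 regions at CCL1 (73.2%) and CCL3 (62.8%) are the 3 factor regions above the middle of their lists, drawn as a dashed line, and the H3K27ac region at CCL3 (97.5%) is the highest point.

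CCL1 encodes I-309, the ligand of CCR8, a receptor of regulatory and type 2 helper T cells. It spans 34360328 to 34363233 of chromosome 17 on the minus strand, next to CCL13. Its factor regions all lay upstream of the start, and each overlapped H3K27ac. The nearest was a GATA3 region of 976 bp at 34364927 to 34365902, whose summit was 2271 bp upstream. It had the maximum score of 1000 but a low signal value of 7.36, with 18.0% of the list lower, and a −log10 q of 51.9. The H3K27ac region with it, at 34364942 to 34366099, was 1158 bp wide with a signal value of 4.53 and a −log10 q of 17.9, and the summits lay 308 bp apart.

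Farther upstream of CCL1 lay 2 BHLHE40 regions. The first, at 34370298 to 34371495, had a signal value of 6.02 and overlapped an H3K27ac region of signal value 3.18. The second, at 34382435 to 34383164, had its summit 19515 bp upstream, near the edge of the window. Its signal value of 13.6 and −log10 q of 93.0 were the highest of the 7 BHLHE40 regions, and it overlapped an H3K27ac region of signal value 4.03. The CCL1 start itself was in no region. An H3K27ac region at 34360456 to 34360728, with a signal value of 3.03 and a −log10 q of 4.22, lay near the other end of the record. In all, 5 H3K27ac regions covered 2801 bp of the window, more than in 79.0% of short genes.

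CCL3 and CCL4 encode the macrophage inflammatory proteins MIP-1 alpha and beta, attractants of monocytes and T cells. The records lie 13684 bp apart on chromosome 17, CCL3 at 36088256 to 36090143 and CCL4 at 36103827 to 36105614. Both have near-identical copies nearby, CCL3L3 and CCL4L2, so the same caution on read placement applies. The CCL3 window held 1 BHLHE40 region (36082515 to 36083151, signal value 11.3, −log10 q of 63.4) that overlapped 1 H3K27ac region (36082132 to 36083121). This H3K27ac region had a signal value of 9.57 and a −log10 q of 42.2, the highest of the 27, and ranked 2865 of 113570. Both lay downstream of CCL3, inside the record of the antisense RNA CCL3-AS1, with the BHLHE40 summit 5493 bp beyond the record. No region lay over either gene or between them. The nearest GATA3 region, at 35930620 to 35931277, was 156979 bp from CCL3.

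The empty CCL4 window depended on its edge. The BHLHE40 region near CCL3 lay 676 bp outside it and the H3K27ac region 706 bp outside it, so with 50 kb on each side CCL4 had 1 of each. On the other side the nearest region of any list was 380436 bp away, an H3K27ac region with its summit in the record of ZNHIT3.

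CCL5, or RANTES, attracts T cells, monocytes and eosinophils. Its record spans 35871491 to 35880360 of chromosome 17. The window held 6 H3K27ac regions, and 78.0% of short genes had fewer, but 1 of the 6 reached a −log10 q of 5. That region, at 35871338 to 35871797 with a signal value of 4.34, lay over the lower-coordinate end of the record, which the lncRNA record LOC105371745 also covers. A second lay inside the record (35875276 to 35875521, −log10 q of 2.02). The single BHLHE40 region, at 35898254 to 35898715 with a signal value of 5.61 and a score of 754, lay 17894 bp past the higher-coordinate end. It overlapped a weak H3K27ac region with a −log10 q of 2.02. The nearest GATA3 region was 50260 bp away.

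**Figure D3:**
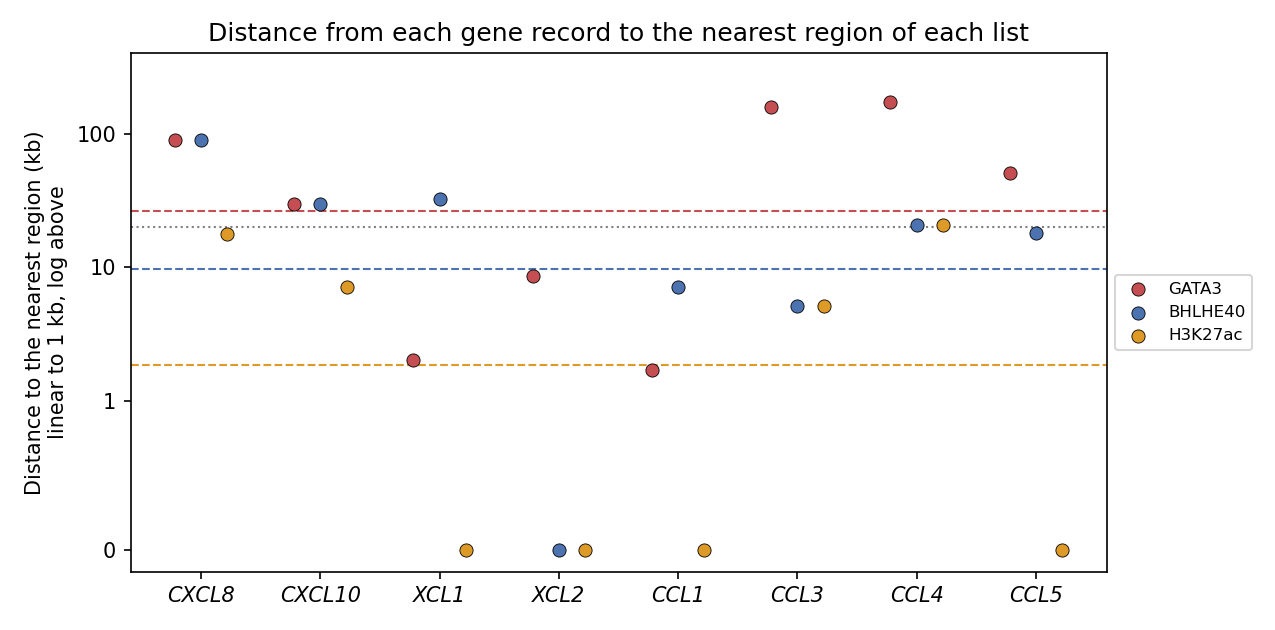
Distance in kb from each gene record to the nearest region of each list, linear up to 1 kb and logarithmic above, with 0 for an overlap. Dashed lines give the median of the 5179 short protein-coding genes in the colour of the list (26212 bp for GATA3, 9738 bp for BHLHE40 and 1867 bp for H3K27ac) and the dotted line the 20 kb flank. XCL1, XCL2 and CCL1 are the 3 genes nearer than the median for GATA3, and XCL2, CCL1 and CCL3 for BHLHE40.

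By signal value, most of the few factor regions of the windows were below the middle of their lists. The signal value was above the list median in 1 of 3 GATA3 regions and 2 of 7 BHLHE40 regions, with medians of 7.36 and 6.28 against list medians of 11.2 and 9.35. The median −log10 q was 51.9 against 54.9 for GATA3 and 25.8 against 46.8 for BHLHE40. Counts of 3 and 7 are too few to set these regions apart from their lists. For H3K27ac, 14 of 27 were above the list median signal value, with a median of 3.46 against 3.31. By −log10 q, 19 of the 27 were above the list median, with a median of 4.22 against 3. The XCL2 window alone held 11 of the 27. A score of at least 830 corresponds to an irreproducible discovery rate of 0.01. It was reached by 2 GATA3 regions in 2 windows (XCL1 and CCL1) and by 4 BHLHE40 regions in 3 windows (XCL2, CCL1 and CCL3). The BHLHE40 region at the start of XCL2, with a score of 823, did not reach it. In the whole lists, 22102 of 29009 GATA3 regions and 20868 of 26205 BHLHE40 regions reached it. Such a GATA3 region was in the window of 53.1% of protein-coding genes and 37% of short ones, and such a BHLHE40 region in 66.1% and 53.8%. Of the 27 H3K27ac regions, 12 reached a −log10 q of at least 5, against 28551 of 113570 in the whole list. These 12 lay in 4 windows, 7 in XCL2, 3 in CCL1 and 1 each in CCL3 and CCL5, so 1 window gave most of them. Such a region was in the window of 70.7% of protein-coding genes and 56.9% of the short ones. CXCL8, CXCL10, XCL1 and CCL4 had none.

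Regions at the ends of the records were counted next. BHLHE40 lay within 1 kb of an end of 1 of the 8 records (XCL2), against 46.9% of protein-coding genes and 37.1% of short ones. GATA3 lay at an end of 0 of the 8, against 22.8% and 17.4%. H3K27ac lay at an end of 3 (XCL2, CCL1 and CCL5), against 56.3% and 44.3%, so the H3K27ac count was near the share of the short genes. With 8 genes, the counts of 1 for BHLHE40 and 0 for GATA3 are too few to set apart from their shares. An H3K27ac region overlapped the record itself in 4 of the 8 (XCL1, XCL2, CCL1 and CCL5), with 5 regions in all. The share of all genes with such an overlap was not computed, so this count cannot be called high or low. Among the 5179 short genes, the distance to the nearest H3K27ac region had a lower quartile of 0 bp and a median of 1867 bp.

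Overlaps between regions of different lists were counted in these windows. Of the 7 BHLHE40 regions, 6 overlapped an H3K27ac region, all but the one that met GATA3 downstream of XCL2, and the share over the whole list was 76.4%. The BHLHE40 summit itself lay inside the H3K27ac region in 3 of the 7. The share of the whole list by this rule was not computed, so this count cannot be called high or low. Distances between the summits of overlapping regions ran from 117 bp at XCL2 to 351 bp at CCL1. GATA3 overlapped H3K27ac in 1 of 3 regions (CCL1) and BHLHE40 in 1 of 3 (XCL2), where the whole list had 49.1% and 48.7%. Counts of 3 and 7 are too few to set apart from these shares.

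Receptor genes for some of these chemokines were described in windows built the same way. CCR8, the receptor of CCL1, had 8 GATA3, 3 BHLHE40 and 6 H3K27ac regions in its window. XCR1, the receptor of the lymphotactins, had 5 GATA3, 5 BHLHE40 and 11 H3K27ac regions, and CXCR3, the receptor of CXCL10, had 1, 3 and 6. CXCR1 and CXCR2, the receptors of CXCL8, had no factor region, as CXCL8 itself had none. Receptor records differ in length from those of the ligands, and some windows share regions, so these counts are a description without a test. Among 15 further chemokine receptors, atypical ones included, 12 had a GATA3 region, against 61.8% of all protein-coding genes. A BHLHE40 region was present for 12, against 71%, and an H3K27ac region for 13, against 86.8%. All 3 lists were present for 10 of the 15, and the share of all genes with all 3 was not computed. Among the listed chemokine and receptor genes with regions of all 3 lists, the 3 whose numbers of regions were closest to those of XCL2 (1, 3 and 11 for GATA3, BHLHE40 and H3K27ac) were CCR3 with 1, 3 and 9, CCR7, the homing receptor to lymph nodes, with 2, 4 and 12, and CXCR5, the homing receptor to B-cell follicles, with 1, 2 and 8.

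**Figure D4:**
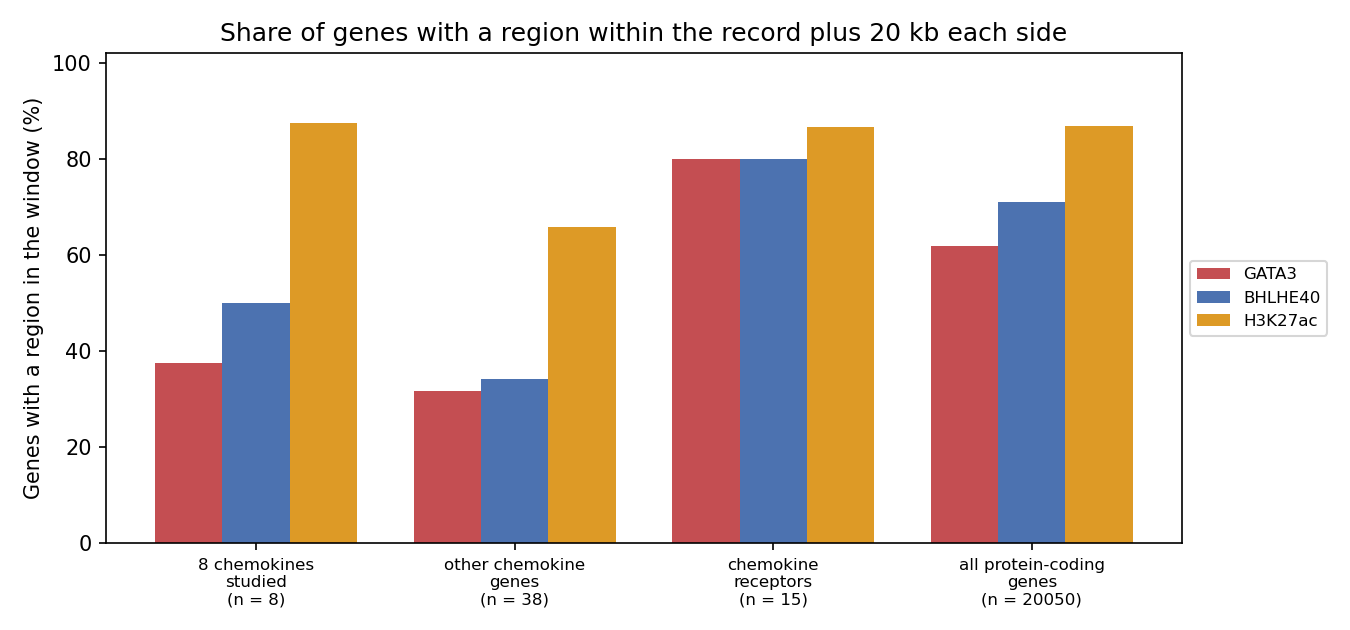
Percentage of genes with at least 1 region of each list in the record plus 20 kb on each side, for the 8 chemokines, the other chemokine genes, 15 further chemokine receptors and all protein-coding genes, with the number of genes under each group. The GATA3 bars stand for 3 of 8 chemokines, 12 of 38 other chemokines and 61.8% of all protein-coding genes, while the share among genes with records as short as those of the 8 was 44.9%.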

How the data were processed

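The authors deposited 1 peak list per group of 2 samples, in narrowPeak layout. Per the submitters' processing notes, the build was hg38 and the tools included bcl2fastq 2.20 and MACS2. The aligner, its filters and the use of input are not given in the sources used here. Per the labels, the factor lists were kept at an irreproducible discovery rate of 0.05 and the H3K27ac list came from pooled samples. Score, signal value and −log10 q are the authors' deposited values per region. What the signal is relative to is not stated.

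Windows, overlaps (at least 1 bp), summit distances and word matches were computed with Python 3.11.15, numpy 2.4.6 and pandas 2.3.3. Gene records came from RefSeq GRCh38.p14 (59716 records, of which 20050 are protein-coding), with no exons, so exons, introns and untranslated regions were not told apart. Strand was taken from the promoter table. The receptors of the members are not reported here as a set. Region sequences were not read, and planned protein identities were not run. Functions were tested on simulated data, and 8 of 8 checks over 1000 simulated records were recovered. Named genes were the 8 members with up to 3 regions per list and the list genes most like the fullest member. Neighbouring genes were named where a region lay in them, and further receptors and regions were chosen after their values were seen. The members and lists were chosen with earlier results of these data known. Alternatives were other window sizes, summit-based counting, stricter lists, other overlap rules and all gene records.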

Additional observations from a re-analysis of the deposited data

How the results depend on the processing

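Of 50 alternatives to the counts over all 8 genes and the background shares, 36 stayed within 1.5 times the reported value and 14 did not. Overlaps were compared as counts, so a changed number of regions can move them without as large a change in share. With 50 kb on each side the windows held 7 GATA3 and 48 H3K27ac regions, 7 genes had a BHLHE40 region, and 3 of 7 GATA3 regions overlapped BHLHE40 and 3 overlapped H3K27ac. With 10 kb there were 15 H3K27ac regions. The stricter lists left 4 BHLHE40 and 12 H3K27ac regions and 4 genes with H3K27ac. With the stricter factor lists, 0 of 2 GATA3 regions overlapped BHLHE40 and 3 of 4 BHLHE40 regions overlapped H3K27ac. Without XCL2 and CCL4 there were 4 BHLHE40 and 16 H3K27ac regions. By summit, 3 BHLHE40 regions lay in H3K27ac. For counts of single genes, 28 of 96 alternatives moved by more than 1.5 times. By construction a stricter or smaller setting cannot add regions, and a wider one cannot remove any. No paired analysis was possible because the samples of a group share a single list, and leaving out a replicate was not possible for the same reason. The unknown depth limits every count, and a window without a region does not show that the mark or factor was absent.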

Other observations

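Among 38 other chemokine genes, 12 had a GATA3 region in their window, 13 a BHLHE40 region and 25 an H3K27ac region. Neither factor had a region in 23 of them, and the share of all genes with neither was not computed. PF4, PPBP and CXCL5, neighbours on chromosome 4 that encode platelet and neutrophil-attracting chemokines, had 3, 3 and 5 H3K27ac regions and no factor region. CCL3L3 and CCL4L2, the near-identical copies of CCL3 and CCL4, had no region of any list. CCL17 and CCL22, the ligands of CCR4, had 2 and 1 GATA3 regions and 1 BHLHE40 region each, and CCR4 itself had 4 GATA3 and 3 BHLHE40 regions. Neighbouring windows share regions, and these genes were singled out after their values were seen.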
